A study of Homo sapiens with 16 samples.

Results

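The genes described here are 10 transcripts that ERK signalling induces and that act on the same pathway or carry its output, namely SPRY1, SPRY2, SPRY4, SPRED1, SPRED2, SPRED3, ETV1, ETV4, ETV5 and PHLDA1. They were taken by name, as every non-control probe of the array whose gene name equals one of these symbols, which gave 17 of 58201 probes and 10 of 42665 gene names. Of the 10 genes, 9 had a probe that was bright enough to test. SPRED3 was well above background on 1 of 16 arrays with one probe and on 0 with the other, so no value is given for it.

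Receptor tyrosine kinases such as MET, the receptor of hepatocyte growth factor (HGF), activate RAS, RAF, MEK and ERK in turn. Active ERK raises the transcription of inhibitors that limit the same cascade. Sprouty proteins (SPRY) bind adaptor proteins below receptors and restrain RAS and RAF activation, and SPRED proteins bring neurofibromin to RAS at the membrane. ETV1, ETV4 and ETV5 form the PEA3 family of ETS transcription factors, whose genes and proteins are both under ERK control. PHLDA1 is a pleckstrin homology-like protein that growth factors induce and that can bind and restrain receptors of the ERBB family. Several of these genes are used as transcript readouts of ERK activity in epithelial and lung cancer cells.

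RNA was measured on 16 one-colour Agilent arrays from 16HBE, a human bronchial epithelial line immortalised with the SV40 large T antigen, 4 arrays for each of 4 conditions. The 16HBE-WT cells have unedited MET. The 16HBE-ex14 cells are 1 clone, clone F, in which CRISPR/Cas9 editing led to loss of exon 14 of MET from the transcript. Both were starved of serum for 2 h and then left without HGF or given HGF at 20 ng/mL for 24 h. The cultures that received it are written 16HBE-WT+HGF and 16HBE-ex14+HGF. Because only 1 edited clone was measured, the effect of the exon 14 edit and of the clone cannot be told apart.

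The arrays lay on 2 slides with 2 rows each, and each row held 1 array of each condition. The 75th percentile of an array's signals, the value every signal was scaled to, was 139.5 to 191.0 in 16HBE-WT+HGF, 156.3 to 213.0 in 16HBE-WT, 211.1 to 240.5 in 16HBE-ex14 and 201.8 to 262.8 in 16HBE-ex14+HGF. Between 49.0% and 60.3% of probes were well above background, and 16HBE-ex14+HGF had the highest median share, 57.8%, against 52.1% to 52.8% in the other conditions. The part of these differences in the results was not tested. All 6 epithelial markers (EPCAM, CDH1, KRT8, KRT18, KRT19 and KRT5) were well above background on 16 of 16 arrays. Their summed unscaled signal was 280916 to 352682 in the arrays of 16HBE-WT cells with and without HGF and 342777 to 407281 in those of 16HBE-ex14 cells. KRT5, a basal cell keratin, had a mean log2 level of 2.62 without HGF and 2.00 with HGF in 16HBE-WT cells, and of 0.05 without and -2.26 with HGF in the edited clone. It was the 1 of the 6 that was called, lower with HGF in 16HBE-ex14 cells (adjusted p = 1.47e-04, limma) and lower in 16HBE-ex14 than in 16HBE-WT cells at both HGF levels. With HGF in 16HBE-ex14 cells CDH1 gave -0.579 (adjusted p = 0.035, limma), just under the fold limit. EPCAM, KRT8, KRT18 and KRT19 gave 0.08 to 0.35 there. Between the lines without HGF KRT19 gave -0.575 (adjusted p = 4.26e-04, limma), also under the limit, while CDH1 and KRT8 were positive. Of 5 fibroblast markers, COL1A1 and PDGFRB were well above background on all 16 arrays and COL1A2, COL3A1 and THY1 on 0, with a summed signal of 75.7 to 189.7 in 16HBE-WT cells with and without HGF and 78.2 to 116.9 in 16HBE-ex14 cells. Of 2 endothelial markers, VWF was above background on all 16 arrays and PECAM1 on 0, with sums of 17.1 to 37.7 and 27.1 to 61.5. PTPRC and CD14, which mark leukocytes, were detected on all 16 arrays, with sums of 93.7 to 182.9 and 128.3 to 258.2. The part of these markers in the results was not tested. MET itself differed by 0.14 (SE 0.11) on the log2 scale between 16HBE-ex14 and 16HBE-WT (adjusted p = 0.445, limma), and HGF was well above background on 0 arrays. The files do not say whether the MET probe lies in exon 14, so its level does not check the edit.

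Values below are log2 signals minus the 75th percentile of the array, so 0 is the level of a probe brighter than 75% of the spots. A gene is represented by its brightest probe. A gene was called changed where limma, fitted over all 16 arrays, gave an adjusted p below 0.05 over 34600 tested probes and a fold change above 1.5. Levels of different probes are not compared, because probes differ in brightness for the same amount of RNA. In RNA from a whole culture, fewer cells that express a gene and less RNA per cell cannot be told apart.

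HGF raised 4 of the 9 measured genes in 16HBE-ex14 cells: SPRY4, ETV4, ETV5 and SPRY1. Of all 26356 gene names tested on their brightest probe, 1.13% were called higher in the same comparison. The median log2 fold change of the 9 genes was 0.49, against 0.06 over all gene names. Of the 9 genes, 8 had a positive value and 6 an unadjusted p below 0.05. Of all 34600 probes, 4914 had an unadjusted p below 0.05 by limma. The 4 and 4 arrays did not overlap for these same 4 genes, while 4.48% of all gene names were higher with no overlap.

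Among the inhibitors of the cascade, SPRY4 had the highest log2 fold change on the brightest probes. In 16HBE-ex14 cells its log2 level was -1.49, -1.61, -1.53 and -1.15 without HGF (replicates 1 to 4). With HGF the 4 arrays gave -0.11, -0.90, 0.39 and -0.03. Every array with HGF lay above every array without it, with a wide spread that came mainly from replicates 2 and 3. The log2 fold change was 1.28 (95% confidence interval 0.67 to 1.89, adjusted p = 0.026, limma), a 2.43-fold rise. It was 1.04 within the first slide and 1.52 within the second. A second, dimmer SPRY4 probe was designed to another RefSeq transcript and also measured on 16 arrays. It gave 0.67 (0.25 to 1.09) with an adjusted p of 0.091 (limma) and was not called. Without 16HBE-ex14+HGF replicate 2 this probe gave 0.89 (adjusted p = 0.0090, limma) and was called. Over the alternative settings other than leaving out 1 array, its value ran from 0.25 to 0.67.

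SPRY1 had the tightest replicates of the 4. Its levels in 16HBE-ex14 cells were -1.33, -1.73, -1.34 and -1.42 without HGF and -0.69, -0.67, -0.58 and -0.82 with HGF. The groups were apart on every array, and the mean went from -1.45 ± 0.19 to -0.69 ± 0.10 (SD, n = 4 each). This was a 1.70-fold rise (log2 fold change 0.76, 95% confidence interval 0.47 to 1.06, adjusted p = 0.0078, limma). A dim second SPRY1 probe, measured on 3 of 4 arrays without HGF and 4 of 4 with it, had means of -3.76 and -2.42, a log2 difference of 1.33 (0.85 to 1.82, adjusted p = 0.0059, limma). This dim probe was above background on 0 of 4 arrays in 16HBE-WT and 1 of 4 in 16HBE-WT+HGF. It passed the brightness filter mainly through the conditions in which it was high, so its p-value is no separate support. With normexp correction the dim probe gave 0.39 and the brighter SPRY1 probe 0.48, both under the fold limit. The 2 probes lie apart on chromosome 4, at 124318918 to 124318977 and at 124324494 to 124324553 of hg19.

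SPRY2, the third Sprouty gene measured, was not called. Its level in 16HBE-ex14 cells was between 0.16 and 0.30 without HGF and between 0.18 and 0.36 with it. These ranges covered each other almost fully, and the log2 fold change was 0.03 with a 95% confidence interval of -0.23 to 0.28 (adjusted p = 0.956, limma). The interval ends below the lower bounds for the brightest probes of SPRY1 (0.47) and SPRY4 (0.67). The lower bound of the second SPRY4 probe, 0.25, lies inside it. The genes were not tested against each other.

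The SPRED genes were not called with HGF in 16HBE-ex14 cells. For SPRED1, the gene mutated in Legius syndrome, levels were -1.33, -2.04, -1.54 and -1.61 without HGF and -1.54, -1.35, -0.88 and -1.005 with it. The groups overlapped through replicate 1, the only one in which the array with HGF was the lower of the pair on the same slide row. Its log2 fold change was 0.44 (0.05 to 0.82, unadjusted p = 0.030, adjusted p = 0.276, limma). SPRED2 gave -0.03 (-0.44 to 0.38, adjusted p = 0.970), with levels from -2.23 to -1.51 without HGF and from -2.27 to -1.55 with it.

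Of the PEA3 transcription factors, ETV4 and ETV5 rose and ETV1 was not called. ETV4, an ETS factor linked to branching growth and invasion, had levels of -1.72, -1.78, -0.73 and -1.38 without HGF and -0.51, -0.40, 0.38 and -0.16 with HGF in 16HBE-ex14 cells. Replicate 3 was the highest array in both conditions, so the spread was wide while the groups stayed apart. The rise was 2.35-fold (log2 fold change 1.23, 0.68 to 1.78, adjusted p = 0.018, limma), with 1.30 within the first slide and 1.17 within the second. ETV5, its close relative, went from -1.63, -1.97, -1.11 and -1.47 to -1.01, -0.68, -0.47 and -0.85. Its rise was 1.73-fold (0.79, 0.44 to 1.14, adjusted p = 0.017), and again replicate 3 was the highest array in both conditions. ETV1 gave 0.42 with an interval that spans 0 (-0.05 to 0.90, adjusted p = 0.426), and its groups overlapped.

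PHLDA1 had levels of 2.15, 2.35, 2.25 and 2.57 without HGF and 2.74, 2.50, 3.12 and 2.92 with HGF in 16HBE-ex14 cells. The groups overlapped by 1 array on each side, replicate 4 without HGF and replicate 2 with it. Its log2 fold change of 0.49 (0.15 to 0.83) had an unadjusted p of 0.0083 and an adjusted p of 0.139 (limma), so it was not called.

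**Figure D1:**
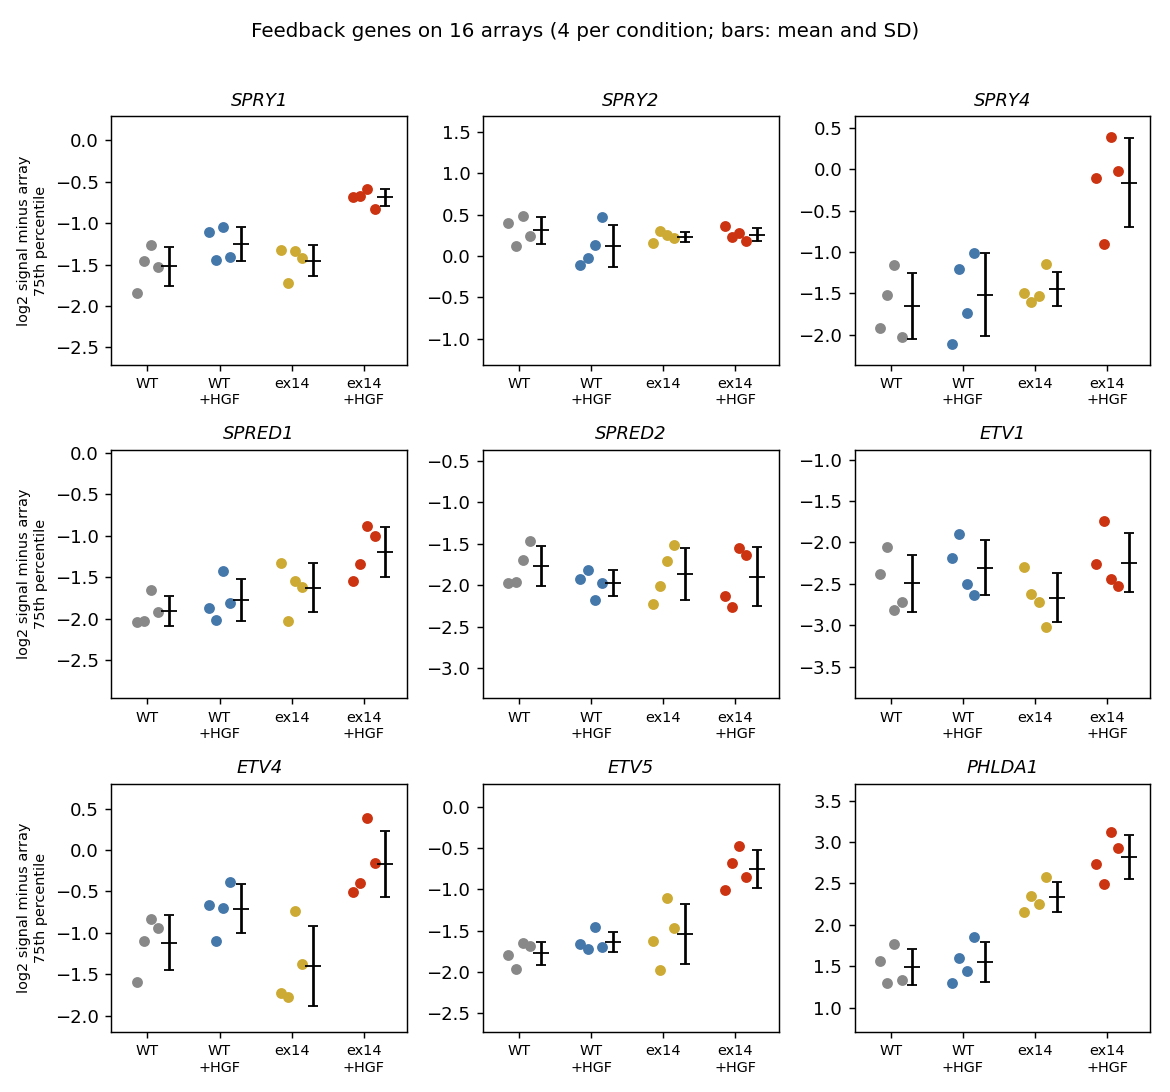
Log2 signal minus the 75th percentile of the array (y axis) for the brightest probe of each of 9 genes on 16 arrays; each point is 1 array, replicates 1 to 4 from left to right, and bars are the mean and SD of 4 arrays. Each panel spans 3 log2 units; the 16HBE-ex14+HGF points of SPRY1, SPRY4, ETV4 and ETV5 lie above all 16HBE-ex14 points, and both 16HBE-ex14 groups of PHLDA1 lie above both 16HBE-WT groups.

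Of the 4 calls, SPRY1 kept its call without any single array (adjusted p 0.0055 to 0.034), whereas the number of genes called fell to 1 on leaving out replicate 2 of 16HBE-ex14 or replicate 3 of 16HBE-ex14+HGF, and to 2 on leaving out replicate 1 or 4 of 16HBE-ex14 or replicate 4 of 16HBE-ex14+HGF. It was also 2 with normexp background correction, array-median scaling or spike-in scaling, and 1 where only the 8 arrays of 16HBE-ex14 cells were fitted. The sign of the 4 fold changes stayed positive in each of these. Over 30 alternatives, single arrays left out included, SPRY4 lost its call in 10, ETV5 in 7, ETV4 in 6 and SPRY1 in 1. The 30 include values within 1 slide, which carry no call, and settings that leave the fold unchanged.

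In 16HBE-WT cells no change with HGF was called for the 9 genes. The limma fit called 0 probes of 34600 in this comparison, so the background was 0%, with 1694 probes at an unadjusted p below 0.05. Of the 9 genes, 0 had an unadjusted p below 0.05 and 7 had a positive value, with a median log2 fold change of 0.14 against 0.04 over all gene names. No gene of the 9 had arrays with HGF that all lay above those without it, which was the case for 1.59% of all gene names.

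ETV4 had the highest value in 16HBE-WT cells, from -1.60, -1.10, -0.83 and -0.95 without HGF to -0.66, -1.10, -0.70 and -0.38 with it. The log2 fold change was 0.41 (-0.14 to 0.96, limma), and the groups overlapped. SPRY1 followed with 0.27 (-0.02 to 0.56). For SPRY4 the levels were -1.92, -1.52, -1.15 and -2.03 without HGF and -2.12, -1.20, -1.73 and -1.02 with it, so the groups covered the same range and the value was 0.14 (-0.47 to 0.75). ETV5 gave 0.14 (-0.21 to 0.49) and PHLDA1 0.06 (-0.28 to 0.40). SPRY2 and SPRED2 had negative values, -0.19 (-0.45 to 0.07) and -0.20 (-0.61 to 0.20). The values of SPRY1, SPRY4, ETV4, ETV5 and PHLDA1 in 16HBE-ex14 cells lie above the intervals of the same genes in 16HBE-WT cells. Those of the other genes lie inside. Setting a single value against an interval is no test of the difference, which is given next.

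The difference between the HGF responses of the cell lines was tested as an interaction. All 9 genes had a larger value in 16HBE-ex14 than in 16HBE-WT cells, with a median difference of 0.43 on the log2 scale against 0.00 over all gene names. The limma fit called 0 of 34600 probes for this difference (1600 at an unadjusted p below 0.05), so the background was again 0%. Of the 9 genes, 4 had an unadjusted p below 0.05. These were SPRY4 with a difference of 1.14 (95% confidence interval 0.28 to 2.01), ETV5 with 0.65 (0.16 to 1.14), SPRY1 with 0.49 (0.08 to 0.91) and ETV4 with 0.82 (0.05 to 1.60). Adjusted over all probes by limma their p-values were 0.918 to 1.000, so a difference between the responses was not shown for any of the 9 genes. Without 16HBE-ex14 replicate 3, 11 probes were called for the difference, and 0 of the 9 genes were among them.

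**Figure D2:**
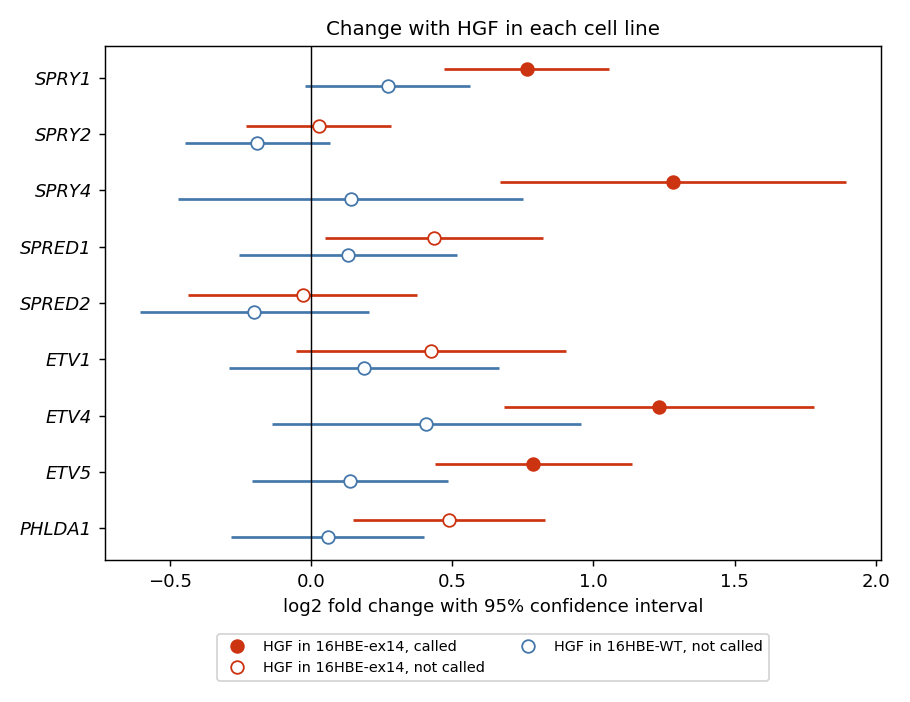
Log2 fold change with HGF (x axis) for the brightest probe of 9 genes in 16HBE-ex14 (red) and 16HBE-WT cells (blue); bars are 95% confidence intervals from limma, and filled points passed an adjusted p of 0.05 and a fold change of 1.5. SPRY1, SPRY4, ETV4 and ETV5 are filled in red, from 0.76 to 1.28, and no blue point is filled.

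Without HGF, PHLDA1 was the only one of the 9 genes called between the cell lines. Its levels were 1.57, 1.30, 1.76 and 1.33 in 16HBE-WT and 2.15, 2.35, 2.25 and 2.57 in 16HBE-ex14 cells. All 4 edited arrays lay above all 4 unedited ones, and the level was 1.79-fold higher (log2 0.84, 0.50 to 1.18, adjusted p = 0.0020, limma). This call held under every alternative setting that was run and without any single array. In the same comparison 4.51% of all gene names were called higher.

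For the other 8 genes no difference between the unstimulated lines was shown, and each interval included 0. SPRY4 gave 0.21 (-0.40 to 0.83), SPRY1 0.07 (-0.22 to 0.36), SPRED1 0.28 (-0.11 to 0.67) and ETV5 0.23 (-0.12 to 0.58). ETV4 was on the negative side at -0.28 (-0.83 to 0.26). For SPRY4, SPRED1, ETV1 and ETV4 the interval reached past the 1.5-fold limit, so a difference of that size was not excluded for them. The upper bound of ETV5, 0.580, lay just under the limit of 0.585. Its value reached 0.37 in an alternative setting, so such a difference is not taken as excluded for it either.

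The dim probes of SPRY1 and ETV1 are given between the lines as levels only, because they passed the brightness filter mainly through the conditions in which they were high. The second SPRY1 probe was above background on 0 of 4 arrays in 16HBE-WT and 3 of 4 in 16HBE-ex14, with measured means of -4.61 and -3.76. The second ETV1 probe was above background on 1 of 4 arrays in 16HBE-WT and 0 of 4 in 16HBE-ex14, with means of -4.07 and -5.69. The brighter probes differed by 0.07 for SPRY1 and -0.17 (-0.65 to 0.30) for ETV1.

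With HGF, 4 of the 9 genes were higher in 16HBE-ex14+HGF than in 16HBE-WT+HGF: PHLDA1, SPRY4, ETV5 and SPRED1. The background of gene names called higher was 5.3%. This comparison shares the 16HBE-ex14+HGF arrays with that of HGF in 16HBE-ex14 cells, so the calls common to both are not independent. All 9 genes had a positive value, with a median of 0.56 against 0.00 over all gene names. PHLDA1 was 2.41-fold higher, with levels of 1.29, 1.61, 1.45 and 1.85 in 16HBE-WT+HGF and 2.74, 2.50, 3.12 and 2.92 in 16HBE-ex14+HGF (log2 1.27, 0.93 to 1.61, adjusted p = 7.07e-05, limma). SPRY4 was 2.56-fold higher (1.35, 0.74 to 1.97, adjusted p = 0.0036, limma), with the 2 groups apart. Its second, dimmer probe gave 0.34 (-0.08 to 0.76, adjusted p = 0.262, limma), with overlapping arrays, and was not called. ETV5 was at -1.66, -1.72, -1.45 and -1.70 in 16HBE-WT+HGF, below every 16HBE-ex14+HGF array. It was 1.84-fold higher (0.88, 0.53 to 1.23, adjusted p = 0.0014, limma). With normexp correction the ETV5 value was 0.44, under the fold limit, and its call was lost.

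SPRED1 was higher by 0.59 (0.20 to 0.97, adjusted p = 0.033, limma), just over the fold limit of 0.585, and its arrays overlapped. Its call was lost without 16HBE-WT+HGF replicate 1, 2 or 4 or without 16HBE-ex14+HGF replicate 3 or 4, with normexp correction, and where only the 8 compared arrays were fitted (adjusted p 0.065 to 0.142). SPRY1 stood just under the limit at 0.56 (0.27 to 0.85, adjusted p = 0.0088), although its arrays did not overlap. SPRY1 was called with array-median scaling (0.66), with spike-in scaling (0.62) and without 16HBE-WT+HGF replicate 1 or 3 or 16HBE-ex14+HGF replicate 4. Its dim probe, above background on 1 of 4 arrays of 16HBE-WT+HGF and 4 of 4 of 16HBE-ex14+HGF, had means of -4.16 and -2.42. The dim ETV1 probe, above background on 4 of 4 and 1 of 4 arrays of these conditions, had means of -3.59 and -5.58. The brighter ETV1 probe gave 0.06 (-0.42 to 0.54).

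**Figure D3:**
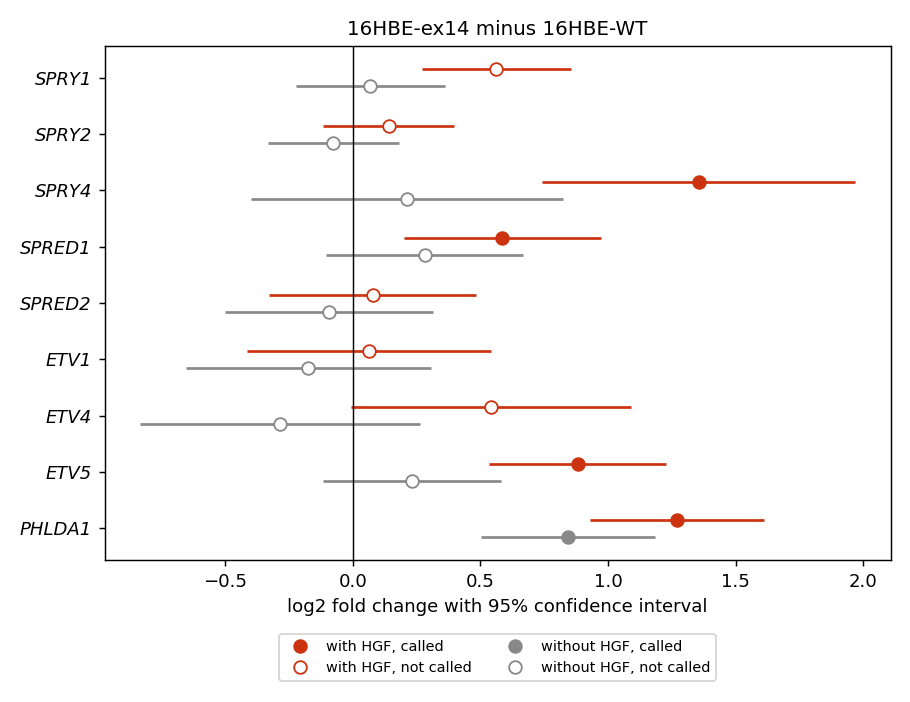
Log2 difference of 16HBE-ex14 minus 16HBE-WT cells (x axis) for the brightest probe of 9 genes with HGF (red) and without HGF (grey); bars are 95% confidence intervals from limma, and filled points passed an adjusted p of 0.05 and a fold change of 1.5. PHLDA1 is filled in both comparisons, at 0.84 and 1.27, and SPRY4, SPRED1 and ETV5 only with HGF.

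The order of the conditions thus took different forms. The means of SPRY4, SPRED1 and ETV5 increased from 16HBE-WT through 16HBE-WT+HGF and 16HBE-ex14 to 16HBE-ex14+HGF, and those of SPRY1 from 16HBE-WT through 16HBE-ex14 and 16HBE-WT+HGF to 16HBE-ex14+HGF. For these genes neither HGF in 16HBE-WT cells nor the lines without HGF differed by a call, and 16HBE-WT+HGF was not tested against 16HBE-ex14. ETV4 ran from 16HBE-ex14 (-1.40 ± 0.48) through 16HBE-WT (-1.12 ± 0.34) and 16HBE-WT+HGF (-0.71 ± 0.30) to 16HBE-ex14+HGF (-0.17 ± 0.40), means and SD of 4 arrays, and of its neighbours in that order none was called. PHLDA1 formed a lower pair, 16HBE-WT (1.49 ± 0.22) and 16HBE-WT+HGF (1.55 ± 0.24), and an upper pair, 16HBE-ex14 (2.33 ± 0.18) and 16HBE-ex14+HGF (2.82 ± 0.27). SPRY2 means lay between 0.12 and 0.31 and SPRED2 means between -1.97 and -1.77, with no comparison called.

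SPRY1, SPRY4 and PHLDA1 are shown by the sequence before their transcription start, the first pair because HGF raised them in 16HBE-ex14 cells and PHLDA1 because its level differed between the lines at both HGF levels. The RefSeq promoter table on GRCh38.p14 held 18 start sites for 8 of the 10 genes; ETV4 and ETV5 were not among them. The window searched ran from 250 bases before to 50 after a start, and the 250 bases before it are printed 5′ to 3′ on the strand of the gene. They are chr4:123398136-123398385 on the plus strand for SPRY1 (1 of its 2 listed starts), chr5:142324248-142324497 on the minus strand for SPRY4 and chr12:76031777-76032026 on the minus strand for PHLDA1. Capitals mark the ETS motif CCGGAAG, the only one of the searched motifs in these 3 windows.
SPRY1: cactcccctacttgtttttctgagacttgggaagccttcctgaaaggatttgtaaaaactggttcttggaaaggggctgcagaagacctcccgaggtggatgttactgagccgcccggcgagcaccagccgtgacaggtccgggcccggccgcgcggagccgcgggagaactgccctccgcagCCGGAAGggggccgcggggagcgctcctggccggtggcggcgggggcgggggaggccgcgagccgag
SPRY4: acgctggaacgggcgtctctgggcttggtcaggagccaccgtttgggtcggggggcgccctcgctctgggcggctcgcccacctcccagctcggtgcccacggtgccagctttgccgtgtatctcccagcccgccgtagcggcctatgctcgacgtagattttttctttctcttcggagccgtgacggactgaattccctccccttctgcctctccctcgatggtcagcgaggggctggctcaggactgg
PHLDA1: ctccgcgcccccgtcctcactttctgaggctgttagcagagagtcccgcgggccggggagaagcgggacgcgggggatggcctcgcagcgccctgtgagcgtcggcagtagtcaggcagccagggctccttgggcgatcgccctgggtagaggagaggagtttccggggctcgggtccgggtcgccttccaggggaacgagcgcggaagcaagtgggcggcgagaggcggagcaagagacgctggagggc

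The motifs searched on both strands were the capicua sites TGAATGAA and TGAATGGA, the ETS site CCGGAAG and the AP-1 site TGANTCA, which reads the same on both strands. Capicua is a repressor of PEA3 genes that ERK relieves, and ETS and AP-1 factors are activated by ERK. Of 35116 promoters in the table, 1.65% held TGAATGAA, 1.03% TGAATGGA, 10.3% CCGGAAG and 7.71% TGANTCA. Among the 18 windows, CCGGAAG was found in 1 (SPRY1), TGAATGGA in 1 of the 6 windows of ETV1, TGAATGAA in 1 of SPRED3, and TGANTCA in 1 of SPRED2 and 1 of SPRED3. No matches of different motifs overlapped. Counted from the start, the SPRY1 match lies at -67 to -61. A match is a match of letters and does not show that a factor binds there.

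Other transcripts of the pathway were counted in 4 lists. Of 20 other ERK-induced transcripts, 4 (20%, against 1.13% of all gene names) were called higher and 0 lower with HGF in 16HBE-ex14 cells, with a list median of 0.37 on the log2 scale against 0.06 over all gene names. They were DUSP6, the ERK phosphatase (1.24, SE 0.29, adjusted p = 0.031), FOSL1, an AP-1 subunit (0.94, SE 0.19, adjusted p = 0.017), TRIB1, a pseudokinase (0.72, SE 0.18, adjusted p = 0.043), and AREG, an EGFR ligand (0.72, SE 0.11, adjusted p = 0.0025), all from limma. In 16HBE-WT cells limma called 0 of 20 (3 at an unadjusted p below 0.05), with a list median of 0.12, and the same 4 genes gave 0.36, 0.45, 0.27 and 0.53. The transcription factor FOS, an immediate-early gene, gave -0.53 (SE 0.40) in 16HBE-ex14 and -0.34 (SE 0.40) in 16HBE-WT cells.

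**Figure D4:**
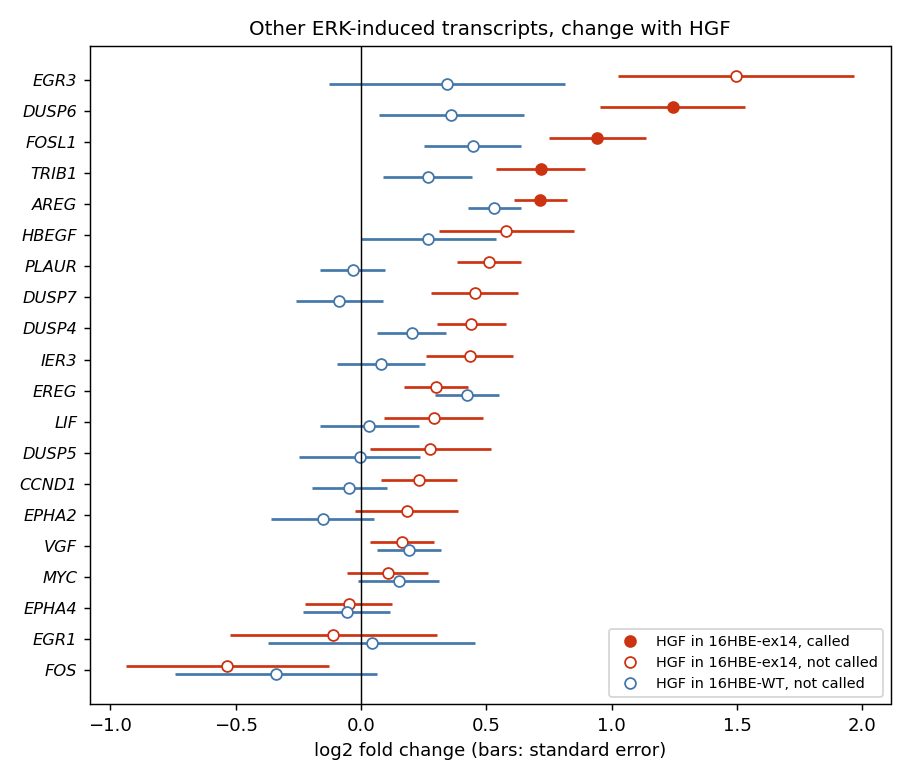
Log2 fold change with HGF (x axis) of 20 other ERK-induced transcripts in 16HBE-ex14 (red) and 16HBE-WT cells (blue); bars are the standard error from limma, and filled points were called. DUSP6, FOSL1, TRIB1 and AREG are filled in red, from 0.72 to 1.24, and no blue point is filled; EGR3 and DUSP7 were well above background on only 4 and 7 of 16 arrays.

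Between the lines without HGF, 6 of the 20 ERK-induced transcripts (30%) were called higher in 16HBE-ex14 and 1 lower, with a median of 0.30, where 4.51% of all gene names were called higher and 4.74% lower. The higher ones included VGF (1.06, SE 0.13), a secreted neuropeptide precursor, EREG (1.06, SE 0.13), an EGFR ligand, DUSP5 (1.01, SE 0.24), a nuclear ERK phosphatase, LIF (0.67, SE 0.20), a cytokine, and FOSL1 (0.60, SE 0.19). EPHA4, an ephrin receptor, was lower at -0.61 (SE 0.17). With HGF, 8 (40%, against 5.3% of all gene names) were called higher and 1 (5%, against 5.36%) lower, with a median of 0.50, among them DUSP6 (1.37, SE 0.29), DUSP5 (1.29, SE 0.24), FOSL1 (1.10, SE 0.19), VGF (1.04, SE 0.13) and EREG (0.93, SE 0.13). EGR3, a transcription factor gene, was also called, but it was well above background on 4 of 16 arrays only, the fewest the brightness filter takes, with its highest mean in 16HBE-ex14+HGF. No fold is given for it, and without it 7 of 19 were called higher.

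Of 20 adaptor, RAS, RAF, MEK and ERK genes, 0 were called with HGF in either line. Of all gene names, 2.11% were called in 16HBE-ex14 and 0% in 16HBE-WT cells, so 0 of 20 is near the background. The list median was -0.08 in 16HBE-ex14 and 0.00 in 16HBE-WT cells. By limma 3 of the 20 had an unadjusted p below 0.05 with HGF in 16HBE-ex14 and 0 in 16HBE-WT cells. Of all 34600 probes, 4914 and 1694 had such a p in these comparisons. Between the lines, 2 of the 20 (10%) were called without HGF and 3 (15%) with it, against 2438 (9.25%) and 2809 of all 26356 gene names. RASA1, a RAS GTPase-activating protein, was higher without HGF (0.59, SE 0.08, adjusted p = 1.10e-04, limma) and KSR1, a scaffold of RAF and MEK, was lower (-0.62, SE 0.17, adjusted p = 0.020). With HGF these values were 0.80 and -0.80, and MAPK3, which encodes ERK1, was lower at -0.60 (SE 0.10).

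Of 20 other inhibitors of receptor tyrosine kinases, limma called 0 with HGF in either line, against 2.11% of all gene names in 16HBE-ex14 and 0% in 16HBE-WT cells. An unadjusted p below 0.05 was found for 7 of the 20 in 16HBE-ex14 and 1 in 16HBE-WT cells. Among all 34600 probes it was found for 4914 and 1694. Between the lines, 2 of the 20 (10%) were called without HGF and 2 with it, a share near that of all gene names (9.25% without HGF, and 5.3% higher and 5.36% lower with it). LRIG1, a membrane protein that promotes receptor degradation, had log2 differences of -2.41 (SE 0.09) without HGF and -2.60 (SE 0.09) with it. DAB2IP, a RAS GTPase-activating protein, was lower without HGF (-0.64, SE 0.12), and SOCS2 was higher with HGF (0.61, SE 0.14). Of 19 genes in a list of binders and controllers of the proteins described here, which also holds PHLDA2 and PHLDA3 as relatives of PHLDA1, CAV1 fell with HGF in 16HBE-ex14 cells (-1.05, SE 0.10, adjusted p = 1.96e-04, limma) and PHLDA2 rose (0.63, SE 0.15, adjusted p = 0.031). CAV1 encodes caveolin-1, which binds Sprouty proteins. These were 2 of 19 (10.5%), against 2.11% of all gene names. Between the lines, 3 of 19 (15.8%) were called without HGF and 4 (21.1%) with it, against 2438 and 2809 of all 26356 gene names. TRIB2, a pseudokinase that directs proteins to the COP1 ubiquitin ligase, was higher in 16HBE-ex14 without HGF (1.08, SE 0.20) and with it (1.23, SE 0.20). PHLDA2 was higher with HGF (0.69, SE 0.15). The capicua partners ATXN1 and ATXN1L differed in opposite directions between the lines without HGF, by -1.16 (SE 0.22) and 0.69 (SE 0.13), and with HGF by -1.58 (SE 0.22) and 0.62 (SE 0.13), while CIC itself, the capicua gene, had means of 2.26 to 2.32 over the 4 conditions.

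The genes whose levels over the 16 arrays were most like those of each called gene were found by Pearson's r among 26323 other gene names. The arrays share 4 conditions and 1 scaling, so these values describe a common pattern over conditions and carry no test. SPRY4 was most like DUSP4 (r = 0.95), THBD (0.95) and DUSP6 (0.94), the first and last being phosphatases of ERK. ETV4 was most like LAMA3 (0.97), MYH16 (0.96) and EMP1 (0.95), and ETV5 most like TNS4, MME and SEC61A1 (each 0.96). SPRY1 was most like JAG1 (0.94), a NOTCH ligand, COL13A1 (0.93) and SH2D5 (0.93). For PHLDA1 the 3 genes were SLC43A1, PLAU and FHOD1 (each 0.97), and for SPRED1 they were FADD, RILP and TERC (each 0.90). Among the 9 genes themselves, r was 0.87 between SPRY1 and ETV5, 0.86 between SPRED1 and ETV5 and 0.83 between SPRY4 and PHLDA1. SPRY2, SPRED2 and ETV1 reached at most 0.30 with any other of the 9, and the lowest values were -0.59 between ETV1 and SPRED2 and -0.47 between ETV1 and SPRY2.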

How the data were processed

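Gene expression was measured on 16 one-colour Agilent microarrays whose probes hold 60 bases, 4 for each of 4 conditions. The deposited intensity is the processed signal of Feature Extraction 10.7.3.1 (from the submitters' processing notes), a linear value after background subtraction and detrending, with no scaling among them. A deposited table of the series repeats these values at all 62976 spots and served only for that check. The authors compared groups with limma and do not name a normalisation between arrays. Here, spots marked as outliers were left out, log2 was taken, the 75th percentile of each array's 60901 non-control spots was subtracted and spots of equal probes were averaged. A probe entered the test if 4 or more of 16 arrays had it well above background, which left 34600 of 58201, and 12 of 17 probes of the genes described; 4 of the 17 were above background on 0 arrays. limma 3.58.1 in R 4.3.3 was fitted with 1 mean per condition and empirical Bayes moderation, and 5 contrasts were taken. Benjamini-Hochberg adjustment was made in each contrast, with limits of 0.05 and 1.5-fold as stated in the study's results. The fit was run on simulated data with independent noise and no slide or replicate effect. That run does not check the p-values against such effects. Of the 17 probes, 16 carry a RefSeq accession that names the same gene in the gene table; probe positions are on hg19. The genes, lists and tests were chosen with earlier results of these data known. Every tested probe of the genes is described; a dimmer probe was compared only where each condition had it well above background on 3 or more arrays, a limit set after the values were seen. Those above background on 0 arrays were 2 of 4 for ETV1, 1 of 2 for PHLDA1 and 1 of 2 for SPRED3, and have no values. Of the lists, called genes are named, up to 6 per list and comparison by size; KRT5, FOS and CIC were chosen after their values were seen. The authors grew the replicates at different times, but the files do not tie arrays to cultures, so p-values measure the spread between arrays. The number of arrays limits the precision. Alternatives were normexp background correction (offset 50), quantile, median and spike-in scaling (8 probes), filters at 0 and 8 arrays, outlier spots kept, slide or replicate blocks, a trended robust prior, fewer arrays and no fold limit.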

Additional observations from a re-analysis of the deposited data

How the results depend on the processing

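The 9 calls of the genes described (4 with HGF in 16HBE-ex14, 1 between the lines without HGF and 4 with HGF) kept their direction in all 270 recomputed values and were lost in 32 of them, 19 of these by leaving out 1 array. Many of these values could not change direction, because blocks, filters, the prior and arrays outside the comparison leave the fold as it was. Those within 1 slide carry no call, so none could be lost there. With HGF in 16HBE-ex14 cells the genes called were 2 with normexp correction, 2 with median scaling, 2 with spike-in scaling and 1 with only the compared conditions, and 1 to 4 without single arrays; all probes called were 411 with normexp correction, 246 with only the compared conditions, and 346 to 977 without single arrays. Normexp with an offset of 50 adds to every signal and so shrinks the folds of dim probes: SPRY1 and ETV5 were both 0.48 there with adjusted p of 0.0014 and 0.0042. Between the lines, normexp gave 1489 probes without HGF and 1814 with HGF (with 2 of the genes called), and no fold limit gave 6348 and 7125. HGF in 16HBE-WT cells gave 0 to 1 probes without single arrays. The difference of the HGF responses gave 4 probes with normexp, 4 with the trended robust prior and 0 to 11 without single arrays, with 0 of the genes in each.

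Median scaling moved the median of all probes from 0.05 to -0.11 with HGF in 16HBE-ex14 and from -0.02 to 0.12 between the lines without HGF, and higher calls went from 52.2% to 24.1% and from 48.0% to 71.8%; spike-in scaling gave 40.5% and 67.8%, and normexp 60.04% between the lines. With HGF the split between the lines was 49.1%, against 66.0% (median), 60.04% (spike-ins) and 58.8% (normexp). Without the filter on dim probes it moved the other way, to 35.4% higher of 5309 called probes. Other values changed sign, none of them called. With HGF in 16HBE-ex14 these were SPRY2 (-0.13 with median scaling, -0.057 with spike-ins, -0.0057 to 0.054 without single arrays) and SPRED2 (-0.15 to 0.094 without single arrays). In 16HBE-WT they were SPRY4 (-0.027 to 0.34 without single arrays) and PHLDA1 (-0.059 with median scaling, -0.042 to 0.15 without single arrays). Between the lines without HGF they were SPRY1 (-0.043 with normexp, -0.036 to 0.16 without single arrays), SPRY2 (0.060 with median scaling, 0.031 with spike-ins) and SPRED2 (0.044 and 0.015 with these, -0.21 to 0.027 without single arrays). Between the lines with HGF they were SPRED2 (-0.089 with normexp, -0.037 to 0.20 without single arrays), ETV1 (-0.087 with normexp, -0.10 to 0.20 without single arrays) and the second SPRY4 probe (from 0.34 to -0.084 with normexp). The cause was not tested.

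The labels do not tie arrays of equal number and slide row to a shared culture. Deviations from the group means correlated above 0.1 in 20 of 24 same-numbered pairs (median 0.20, lowest 0.03) and in 19 of 72 pairs of different number (median -0.13). Deviations sum to 0 within a condition, so positive values in same-numbered pairs push those of different number below 0. The medians are therefore not independent. With the replicate block, 734 probes were called with HGF in 16HBE-ex14 and the same number of genes, 4, with adjusted p of 0.00757 for SPRY1, 0.0357 for SPRY4, 0.00369 for ETV4 and 0.00626 for ETV5; it changed no call of the 9 genes. The lowest log2 value well above background had a median of -4.40 over the arrays. SPRED3 could not be compared, nor could the dim SPRY1 and ETV1 probes between the lines.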
